A study of Rattus norvegicus with 16 samples.

Results

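The annexins are proteins that bind acidic phospholipids when calcium is present, through a conserved core of repeated domains, and cells use them in membrane traffic, in plugging torn membrane and in limiting inflammation. Anxa1, also called lipocortin 1, is induced by glucocorticoids and acts outside the cell through formyl peptide receptors, while Anxa2 binds the small protein S100a10 and in that complex gathers plasminogen and its activator at the cell surface. In brain, Anxa1 and Anxa2 are known mainly from microglia, vessels, meninges and blood leukocytes, and Anxa5 and Anxa6 from many cell types, neurons included.

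The 8 annexin genes described here are Anxa1, Anxa2, Anxa3, Anxa4, Anxa5, Anxa6, Anxa7 and Anxa11, chosen by the gene name printed for each probe in the scanner files. They are 8 of 26583 gene names on the array, and each has 1 probe of 60 bases among the 30367 probes. All arrays are of whole hippocampus from adult male Sprague-Dawley rats. The 3 Naive rats had no injury and no treatment, the 2 Sham rats were anesthetized and prepared without being injured, and the 3 TBI rats received a severe parasagittal fluid-percussion injury. A further 3 rats received the injury and PMI-006 at 250 mg/kg by gavage (TBI+PMI), another 3 the injury and JM6 at 400 mg/kg by gavage (TBI+JM6), and 2 the injury and 17β-estradiol at 33 µg/kg (TBI+E33), which the labels give as subcutaneous and the methods as intraperitoneal. Brains were taken 24 h after injury or its equivalent, and the injury is a single model at a single time in male rats.

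Values are log2 of a probe's signal over the 75th percentile of the probes well above background on the same array, so that 0 is the level of that percentile. A probe was called different when the adjusted p of limma, corrected over all probes tested, was under 0.05. The number of arrays limits the precision of every value. The Naive, Sham and TBI arrays were scanned in the first of 2 sessions, with 16274 to 18239 probes well above background, and the drug arrays in the second, with 20256 to 24979. A difference between a drug group and the Naive, Sham or TBI group therefore cannot be told apart from the session. Neuron, astrocyte and oligodendrocyte markers were well above background on all 16 arrays in 15 of the 16 genes of these lists, Rbfox3 having no probe under that name. In bulk tissue, fewer cells of a type and less RNA per cell cannot be told apart.

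Anxa1 and Anxa2 were the members whose signal differed most between rats, and they moved together, so their upstream sequences are shown. They are the 250 bases before the annotated gene start in RefSeq on GRCr8, for Anxa1 at chr1:227303733-227303982 on the minus strand and for Anxa2 at chr8:78986002-78986251 on the plus strand. Capitals mark matches to TATAAA, the core promoter box, and to TGANTCA, the core of the AP-1 site, searched on both strands.
Anxa1: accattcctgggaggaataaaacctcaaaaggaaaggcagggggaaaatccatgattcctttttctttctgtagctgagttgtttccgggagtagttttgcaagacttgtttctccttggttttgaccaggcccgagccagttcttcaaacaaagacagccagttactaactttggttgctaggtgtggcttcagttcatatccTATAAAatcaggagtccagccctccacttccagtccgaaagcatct
Anxa2: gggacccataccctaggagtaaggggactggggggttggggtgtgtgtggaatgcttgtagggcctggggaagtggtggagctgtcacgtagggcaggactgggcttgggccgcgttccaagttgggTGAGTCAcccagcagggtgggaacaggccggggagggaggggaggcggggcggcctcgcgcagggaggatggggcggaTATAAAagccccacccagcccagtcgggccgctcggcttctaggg
The TATAAA match begins 46 bases before the start of Anxa1 and 45 bases before that of Anxa2. Among the 7 members with an entry in the table, those for Anxa3, Anxa4, Anxa5, Anxa7 and Anxa11 hold no such match in this window, and 12.9% of all 33469 promoters hold it. The single TGANTCA match is that of Anxa2, and 6.34% of all promoters hold one. The windows differ in base composition, with 45.2% G and C in Anxa1 and 67.2% in Anxa2.

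The signals of these genes come from probes placed on the rn4 build, at chr1:223478470-223478529 on the minus strand for Anxa1 and at chr8:73933982-73934041 on the plus strand for Anxa2. The last 30 bases of each probe are shown to give the sequence that was measured, with the polyadenylation signal AATAAA in capitals.
Anxa1 probe: actttggtaccattcctgagaaagaagttt
Anxa2 probe: atgtgtcgtgAATAAAccatttttacttta
Only the Anxa2 probe, among those of the 8 members, holds this signal. The other probes lie on rn4 at chr14:14245218-14245277 (Anxa3), chr4:120890522-120890581 (Anxa4), chr2:122950184-122950243 (Anxa5) and chr10:40384319-40384378 (Anxa6) on the minus strand, and at chr15:4075590-4075649 (Anxa7) and chr16:1495993-1496052 (Anxa11) on the plus strand.

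Each member was well above background on all 16 arrays, with 1 exception. The spot of Anxa3 on Naive 1 was flagged as an outlier by the scanner software, so that this array drops out of every Anxa3 value and the Naive group of that gene has 2 arrays. No member was saturated on any array.

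Anxa1 was low in the uninjured rats and high in 2 of the 3 TBI rats. Its level was -3.50, -0.90 and -3.22 in Naive 1, 2 and 3, -2.61 and -1.79 in Sham 1 and 2, and -1.92, 1.003 and -0.07 in TBI 1, 2 and 3. TBI 1 lay below Sham 2 and Naive 2, so the TBI group overlapped with both, while TBI 2 and TBI 3 lay above every uninjured rat. On the drug arrays the level was 0.36, 0.71 and -0.09 in TBI+PMI, 0.56, 0.62 and 0.57 in TBI+JM6, and 0.41 and 0.79 in TBI+E33. These lay between TBI 3 and TBI 2, apart from TBI+PMI 3, which was just below TBI 3.

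Anxa2 showed the same arrangement of rats. Its level was -1.09, 0.79 and -1.65 in the Naive rats, -0.80 and 0.02 in the Sham rats and -0.10, 2.32 and 2.03 in the TBI rats, in the order of their numbers. It was 2.59, 2.16 and 1.66 in TBI+PMI, 2.16, 2.36 and 2.22 in TBI+JM6, and 1.69 and 2.22 in TBI+E33. TBI 1 again lay within the range of the uninjured rats, and Naive 2 above the other Naive rats and both Sham rats. Every drug array was above every uninjured rat and above TBI 1.

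**Figure D1:**
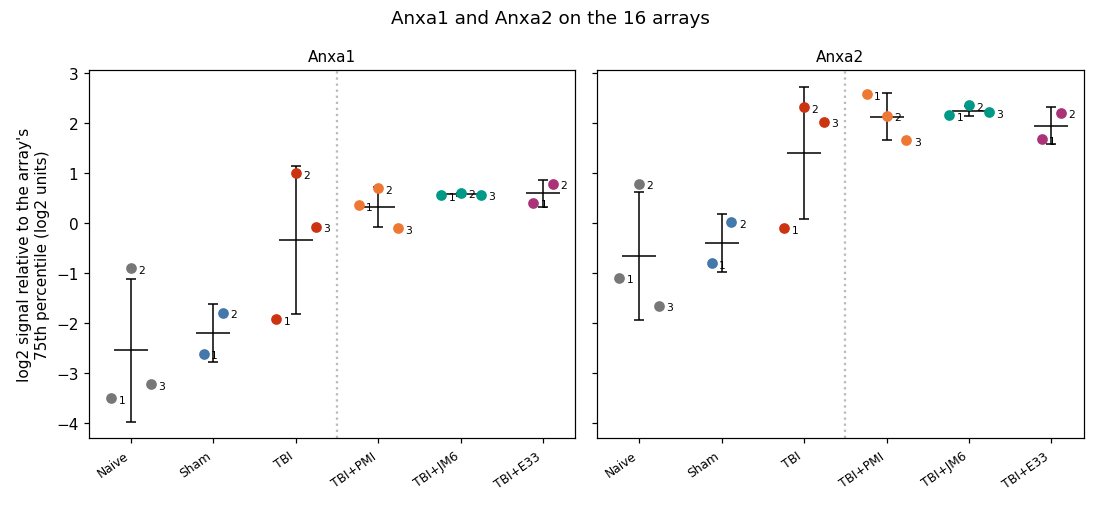
Signal of Anxa1 (left) and Anxa2 (right) on each array as log2 relative to the array's 75th percentile, by group, with the replicate number beside each point and bars for mean ± SD. The dotted line separates the 2 scan sessions. TBI 1 (-1.92 for Anxa1 and -0.10 for Anxa2) sits with the uninjured rats and Naive 2 (-0.90 and 0.79) above them.

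In TBI vs Sham, the comparison that asks what the injury changed beyond the preparation, the mean difference in log2 signal was 1.87 ± 0.78 (SE) for Anxa1, a 3.67-fold higher mean, and 1.81 ± 0.72 for Anxa2, 3.50-fold. Neither passed correction, with an adjusted p of 0.151 for Anxa1 and 0.132 for Anxa2 (limma, 3 TBI and 2 Sham arrays). Of the 8 members, 0 were called, where 9.38% of all 22793 probes tested were. At an unadjusted p under 0.05 limma had 3 members, Anxa1, Anxa2 and Anxa3, and the share of all probes under that limma p is not given here. The methods' t-test with its 1.2-fold limit had 0 members, where 13.5% of all probes passed. The median difference over the members was 0.31, beside -0.03 over all probes.

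Of the 3 TBI rats left out in turn, only the omission of TBI 1 changed this count. That rat was singled out by these same Anxa1 and Anxa2 values. The Naive rats enter the shared estimate of the spread, and the count without one of them is not given for this comparison. Without TBI 1 the difference was 2.67 ± 0.69 for Anxa1 and 2.57 ± 0.62 for Anxa2, with an adjusted p of 0.0207 and 0.0148 (limma), and these were the 2 members called, where 17.9% of all probes were. With the slide as a fixed block, which for TBI and Sham rests on the Naive rats that each slide held, the differences were 2.90 ± 1.72 and 3.31 ± 1.44, with adjusted p of 0.816 and 0.788, the highest among the alternatives. No slide held a TBI and a Sham array.

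In TBI vs Naive, which adds the effects of anesthesia and preparation to that of the injury, the difference was 2.21 ± 0.70 for Anxa1, 4.64-fold, and 2.06 ± 0.64 for Anxa2, 4.18-fold, with adjusted p of 0.0926 and 0.0879. Again 0 members were called, where 4.71% of 22803 probes were, while 3 were under an unadjusted p of 0.05 by limma. The share of all probes under that limma p is not given here either, so this count cannot be judged against it. The methods' t-test had 0 members, where 13.9% of all probes passed. Without TBI 1, 3 members were called higher, Anxa1 at 3.01 ± 0.63, Anxa2 at 2.82 ± 0.56 and Anxa4 at 1.12 ± 0.26, where 8.97% of all probes were called. Without Naive 2, the differences of Anxa1 and Anxa2 were 3.03 ± 0.62 and 2.79 ± 0.58 and both were called, with adjusted p of 0.0259 and 0.029, where 3.23% of all probes were called. Naive 2, like TBI 1, was singled out by these same Anxa1 and Anxa2 values, so leaving it out had to raise the differences. Without Naive 1 or Naive 3, 0 members were called, where 1.24% and 2.86% of all probes were. Across all settings tried, adjusted p values lay between 0.0135 and 0.616 for Anxa1 and between 0.0108 and 0.51 for Anxa2. Within the slide that held Naive 3 and the TBI rats, the TBI mean was 2.90 above that rat for Anxa1 and 3.07 above it for Anxa2.

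In Sham vs Naive neither gene passed the test, the difference being 0.34 ± 0.78 for Anxa1 with an adjusted p of 0.854 and 0.26 ± 0.72 for Anxa2 with an adjusted p of 0.882. The 95% intervals of these differences, from -1.36 to 2.04 and from -1.30 to 1.82, leave room for a change of either sign. Within the slide that held both Sham rats and Naive 1 and 2, the differences were -0.0024 and -0.24, and without Naive 2 they were 1.16 ± 0.68 and 0.98 ± 0.64, again not called.

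Markers of some other cells, though not of all, differed between these rats. The summed signal of 8 blood leukocyte markers, in multiples of the 75th percentile, was 0.129 to 0.157 in Naive and 0.314 to 0.472 in Sham rats. It was 0.665 in TBI 1 but 3.33 in TBI 2 and 1.78 in TBI 3, and 1.68 to 4.09 on the drug arrays. Of these markers, Mpo, the granule enzyme of neutrophils, was not well above background on any array, and S100a9 and Ptprc were above it on all. The summed signal of the 6 meningeal and fibroblast markers, all well above background on every array, was 6.63 in Naive 2 beside 1.64 and 1.78 in the other Naive rats, and 1.04 to 1.17 in the TBI rats. TBI+PMI 1, the array with the highest Anxa2 signal, had the next highest meningeal sum, at 4.36. Choroid plexus markers were at 78.2 in Naive 2 beside 3.03 and 2.38 in the other Naive rats, at 124.0 in Sham 1 beside 4.97 in Sham 2, and at 156.0 in TBI+PMI 1. For Anxa1 and Anxa2, Sham 1 was the lower of the Sham rats. The 3 red blood cell markers summed to 87.5 in Naive 2 beside 38.1 and 30.1 in the other Naive rats.

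The 7 microglia and macrophage markers were well above background on every array, and their sum was 5.08 to 5.64 in Naive, 5.69 to 8.73 in Sham, and 6.95, 9.0 and 9.32 in TBI 1, 2 and 3. They did not move as 1 group. Cd68, a lysosomal protein of phagocytes, was -5.35, -4.15 and -4.88 in Naive, -5.12 and -5.39 in Sham, and -4.14, -1.61 and -1.97 in TBI rats on the log2 scale. As for Anxa1 and Anxa2, Naive 2 was the highest Naive rat and TBI 1 the lowest TBI rat. Unlike for those genes, TBI 1 lay above both Sham rats and about level with Naive 2. Cd68 was 2.69 ± 0.60 higher in TBI vs Sham, with an adjusted p of 0.0196 (limma), and Itgam was 1.40 ± 0.29 higher, while Tmem119 and P2ry12, markers of resident microglia, fell by 2.17 and 1.41. The summed signal of neuron markers was 17.9, 13.0 and 12.3 in TBI 1, 2 and 3, beside 15.8 to 16.6 in Naive and 21.6 to 23.5 in Sham rats. Oligodendrocyte markers summed to 105.0, 72.3 and 52.0 in the TBI rats and endothelial markers to 3.42, 2.03 and 2.26, both lower in TBI 2 and TBI 3 than in TBI 1. Astrocyte markers differed little, with 21.6, 22.7 and 22.6 in the TBI rats beside 19.6 to 22.9 in Naive and 18.9 to 20.9 in Sham rats. The part of these cells in the Anxa1 and Anxa2 values was not tested.

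**Figure D2:**
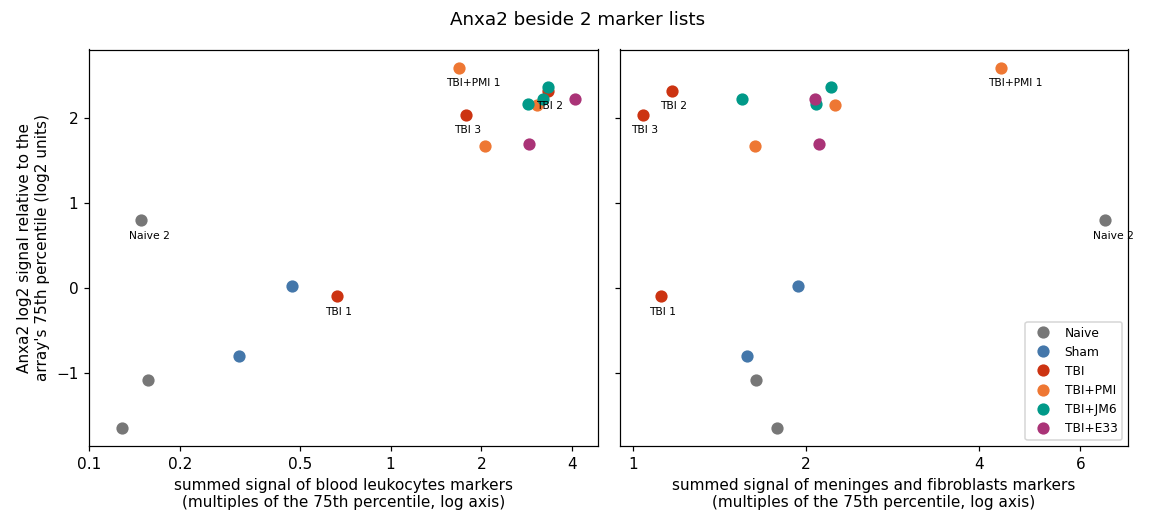
Anxa2 signal on each array (log2 relative to the 75th percentile) against the summed signal of blood leukocyte markers (left) and of meningeal and fibroblast markers (right), with a log scale on the horizontal axis and colours for the groups. TBI 1 has less leukocyte signal (0.665) than TBI 2 and TBI 3 (3.33 and 1.78), and Naive 2 has the highest meningeal signal (6.63).

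After subtracting each session's mean, Pearson's r between Anxa1 and Anxa2 over 16 arrays was 0.962, and the other pairs lay between -0.339 for Anxa4 with Anxa11 and 0.705 for Anxa1 with Anxa4. This closeness was that of the first session, where r was 0.979. Within the second it was 0.523, and other pairs were closer there, such as Anxa5 with Anxa6 at 0.884 and Anxa1 with Anxa5 at 0.776. The genes most like Anxa1, by the same measure among 10213 probes with a gene symbol that were well above background on all 16 arrays, were Tagln (0.979), S100a11 (0.976) and Emp3 (0.976). Those most like Anxa2 were Il13ra1 (0.98), Ifitm1 (0.975) and S100a11 (0.972). Within the second session alone, r with Anxa1 was 0.692 for Tagln, 0.67 for S100a11 and 0.894 for Emp3. There r with Anxa2 was 0.824 for Il13ra1, 0.705 for Ifitm1 and 0.53 for S100a11. Of the remaining members, Anxa4 was most like Tmpo (0.904), Anxa5 like Dnajc3 (0.914), Anxa6 like Ntan1 (0.888), Anxa7 like Thg1l (0.859) and Anxa11 like Stx6 (0.911). Each of these correlations uses arrays that share a scaling step, and they are descriptions of 16 arrays without a test.

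Anxa3, an annexin of neutrophils and microglia, was the remaining member with an unadjusted p under 0.05 in both TBI comparisons, and it was not called in either. Its level was 0.83 and 0.80 in the 2 Naive rats measured, 0.70 and 1.09 in Sham, and 1.98, 1.59 and 1.07 in TBI 1, 2 and 3. Here TBI 1 was the highest of the TBI rats and TBI 3 the lowest, just below Sham 2, which is not the order seen for Anxa1 and Anxa2. The difference was 0.65 ± 0.27 in TBI vs Sham, with an adjusted p of 0.148, and 0.73 ± 0.27 in TBI vs Naive, with an adjusted p of 0.142, where all 3 TBI rats lay above both Naive rats.

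Anxa4, best known from epithelia, and Anxa7, or synexin, which binds the calcium-binding protein sorcin, were both lowest among the TBI rats in TBI 1. Anxa4 was -1.42, -1.48 and -2.09 in Naive, -1.18 and -1.07 in Sham, and -1.92, -0.36 and -0.73 in TBI rats. Anxa7 was -2.54, -2.17 and -0.89 in Naive, -1.04 and -0.11 in Sham, and -2.09, 0.77 and -1.28 in TBI rats. In TBI vs Sham the difference was 0.12 ± 0.38 for Anxa4, with an adjusted p of 0.875, and -0.29 ± 0.73 for Anxa7, with an adjusted p of 0.835. The sign is not settled for either: without TBI 2 it was -0.20 for Anxa4, and without TBI 1 it was 0.32 for Anxa7. Anxa7 was also 0.999 ± 0.65 higher in TBI and 1.29 ± 0.73 higher in Sham than in Naive rats, with adjusted p of 0.42 and 0.327. Within slides, the TBI mean was 0.024 above Naive 3 and the Sham mean 1.78 above Naive 1 and 2.

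Anxa5, which binds phosphatidylserine and is used as a stain for dying cells, spanned 0.21 to 0.70 in Naive, 0.58 to 1.86 in Sham and 0.48 to 1.34 in TBI rats. Sham 1 was the highest of these, so the mean of Sham was 0.84 ± 0.35 above Naive and that of TBI 0.36 below Sham, neither of them called (adjusted p 0.168 and 0.546), and without Sham 1 the mean of TBI was 0.28 above Sham. Anxa6, the largest annexin, with a duplicated core, spanned 0.25 to 1.03 in Naive, -0.06 to 0.17 in Sham and 0.23 to 1.05 in TBI rats. Both Sham rats lay below all Naive and all TBI rats, and the differences were -0.63 ± 0.29 in Sham vs Naive (adjusted p 0.222) and 0.51 ± 0.29 in TBI vs Sham (adjusted p 0.302). Anxa11, which binds Pdcd6 and carries RNA granules along axons, spanned 1.53 to 1.71 in Naive, 1.95 to 2.09 in Sham and 1.65 to 2.24 in TBI rats, and TBI vs Sham was -0.14 ± 0.24 (adjusted p 0.753), or 0.15 when scaled to the E1A spike-in spots.

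In Sham vs Naive 0 of 8 members were called, where 8.07% of 22778 probes were. At an unadjusted p under 0.05 limma had 1 member, Anxa5, and the share of all probes under that limma p is not given here. The methods' t-test with its fold limit had 1, Anxa11, where 16% of all probes passed. When every probe entered the percentile, Anxa6 was called lower in Sham, where 2279 of 22778 probes were called, and without Sham 2, Anxa5 was called higher, where 2.12% of all probes were.

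**Figure D3:**
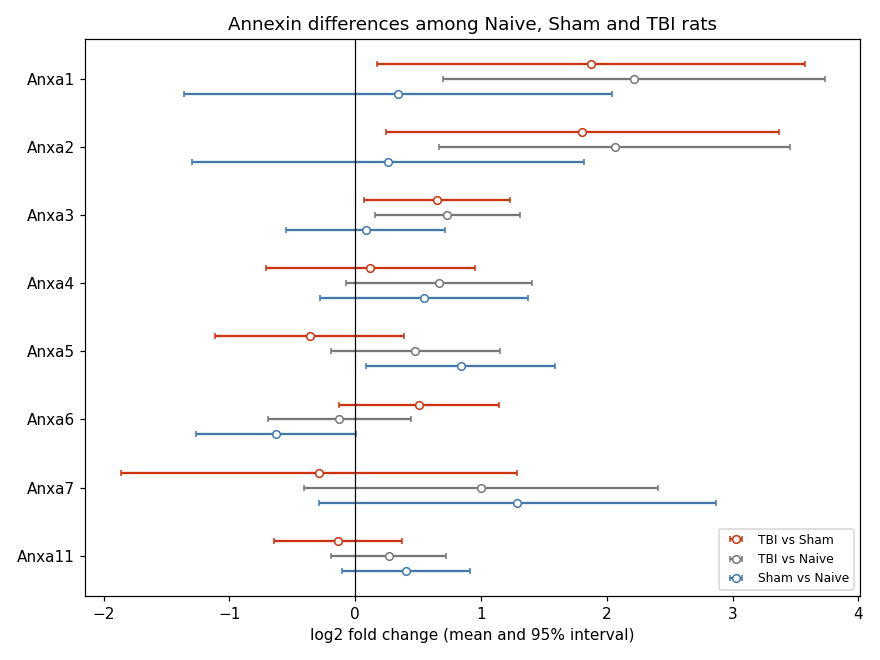
Log2 fold change of each annexin in TBI vs Sham, TBI vs Naive and Sham vs Naive, with the 95% interval from limma, open circles standing for members that were not called. Anxa1 and Anxa2 have the largest differences in both TBI comparisons (1.81 to 2.21) and the widest intervals, with that of Anxa7, and no circle is filled.

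In each drug group the mean of all 8 annexins was above that of TBI rats on this scale, though in only 5, 5 and 3 of the 8 with JM6, PMI-006 and estradiol when every probe entered the percentile. Most probes were higher on these arrays. Against TBI, the median over all probes was 0.99 with JM6, 0.79 with PMI-006 and 1.08 with estradiol, and 7 of 8 members lay below that median in each comparison. Anxa7 was the member above it, at 0.65, 0.20 and 0.52 over the median. Among probes above background on all 16 arrays, a filter that drops Anxa3, the median over probes was lower, at 0.70, 0.54 and 0.75. The median over the 7 members left there was 0.83, 0.67 and 0.73. The 3 comparisons share the TBI rats, so their values are not independent.

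In TBI+JM6 vs TBI, 4 members were called, all higher, where 70.1% of all probes were called. They were Anxa7 at 1.65 ± 0.65, Anxa4 at 0.99 ± 0.34, Anxa5 at 0.80 ± 0.31 and Anxa11 at 0.67 ± 0.21, with adjusted p of 0.0377, 0.0209, 0.0354 and 0.0128. The 4 others were 0.15 to 0.91 higher and not called. In TBI+PMI vs TBI, 2 members were called, Anxa11 at 0.70 ± 0.21 and Anxa3 at 0.60 ± 0.24, with adjusted p of 0.0135 and 0.048, where 56.7% of all probes were. In TBI+E33 vs TBI, 2 were called, Anxa4 at 1.06 ± 0.38 and Anxa11 at 0.59 ± 0.24, with adjusted p of 0.0257 and 0.0389, where 70.3% of all probes were. The share of members called was under that of all probes in each comparison, and with every probe in the percentile Anxa11 with JM6, Anxa3 with PMI-006 and Anxa11 with estradiol turned to -0.12, -0.04 and -0.24.

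The called members show what lies behind these values. Anxa11 was 2.24, 1.65 and 1.76 in TBI rats, 2.79, 2.503 and 2.46 in TBI+PMI, 2.49, 2.21 and 2.98 in TBI+JM6, and 2.36 and 2.59 in TBI+E33. The TBI+PMI and TBI+E33 arrays all lay above the TBI rats, and TBI+JM6 2 lay just below TBI 1. Anxa4 was -0.69, 0.04 and -0.35 in TBI+PMI, 0.02, 0.22 and -0.28 in TBI+JM6, and 0.01 and 0.11 in TBI+E33. TBI+JM6 and TBI+E33 did not overlap with TBI for this gene, and TBI+PMI did. Anxa7 was 0.35, -0.59 and 0.61 in TBI+PMI, 0.30, 0.67 and 1.38 in TBI+JM6, and 0.41 and 1.05 in TBI+E33, and TBI 2, at 0.77, was above at least 1 array of each group. Anxa5 was 1.42, 1.63 and 1.91 in TBI+JM6, all above the TBI rats at 0.48, 1.34 and 0.75. Anxa3 was 2.16, 2.15 and 2.13 in TBI+PMI, above every TBI rat, 2.07, 1.49 and 1.53 in TBI+JM6, and 2.17 and 1.81 in TBI+E33.

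These calls changed with the scaling, and also with the test and with the rats kept. After quantile normalization, in which all arrays are forced to share a distribution, 0 members were called in any drug comparison, while 27.2%, 19.2% and 20.4% of all probes were called with JM6, PMI-006 and estradiol. On that scale 6, 7 and 5 of the 8 members were higher than in TBI rats, and the differences ran from -0.43 for Anxa3 to 0.96 for Anxa7 with JM6, from -0.23 for Anxa6 to 0.43 for Anxa7 with PMI-006, and from -0.43 for Anxa6 to 0.89 for Anxa7 with estradiol. Scaling to the E1A spike-in control spots left 6, 7 and 4 members higher and 0 called, where 28.7%, 18.3% and 23.2% of all probes were called.

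Anxa1 and Anxa2 were called in no drug comparison. Anxa1 was 0.91 ± 0.70, 0.65 ± 0.70 and 0.93 ± 0.78 above TBI with JM6, PMI-006 and estradiol, and Anxa2 was 0.83 ± 0.64, 0.72 ± 0.64 and 0.54 ± 0.72 above it, the last being lower than TBI with every probe in the percentile, with E1A scaling, in the authors' matrix and on quantile normalized values. Without TBI 1, the same differences fell to 0.12, -0.14 and 0.13 for Anxa1 and to 0.07, -0.04 and -0.22 for Anxa2, where the median over all probes stayed at 0.98, 0.78 and 1.07. The rats in session 2 varied little in Anxa1, with an SD of 0.40 in TBI+PMI, 0.03 in TBI+JM6 and 0.27 in TBI+E33, beside 1.48 in TBI, 0.58 in Sham and 1.43 in Naive.

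**Figure D4:**
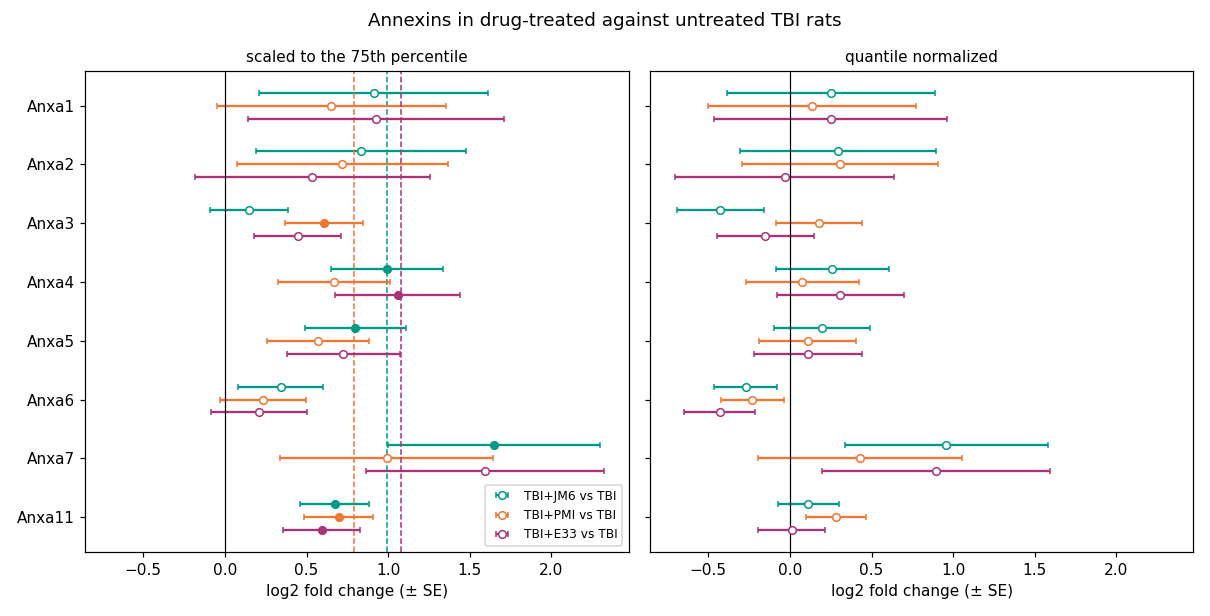
Log2 fold change (± SE) of each annexin in the drug-treated against the untreated TBI rats, on values scaled to the 75th percentile (left) and after quantile normalization (right), filled circles standing for called members. Dashed lines mark the median over all probes (0.99, 0.79 and 1.08), which most annexins do not reach, and the right panel has no filled circle. Among probes above background on all 16 arrays that median was 0.70, 0.54 and 0.75 (not drawn).

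The drug groups themselves were scanned in the same session. No member was called in TBI+JM6 vs TBI+PMI, TBI+JM6 vs TBI+E33 or TBI+PMI vs TBI+E33, where 0.0131%, 0.0175% and 0.11% of all probes were called. No member passed the methods' t-test either, where 6.81%, 2.71% and 14.9% of all probes did. None had an unadjusted p under 0.05 by limma, for which the share of all probes is not given here. The differences ran from -0.60 to 0.66, both ends belonging to Anxa7, which was 0.66 ± 0.65 higher with JM6 than with PMI-006 and 0.60 lower with PMI-006 than with estradiol. Their 95% intervals, -0.75 to 2.07 and -2.18 to 0.97, include large differences of either sign. Anxa3 was 0.45 lower with JM6 than with PMI-006, with all TBI+JM6 rats below all TBI+PMI rats, and its adjusted p was 0.635. On the slide that held TBI+JM6 1 and the TBI+PMI rats, the difference was -0.08 for Anxa3 and 0.17 for Anxa7. Between JM6 and estradiol, Anxa3 differed by -0.30, with an interval of -0.87 to 0.28.

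**Figure D5:**
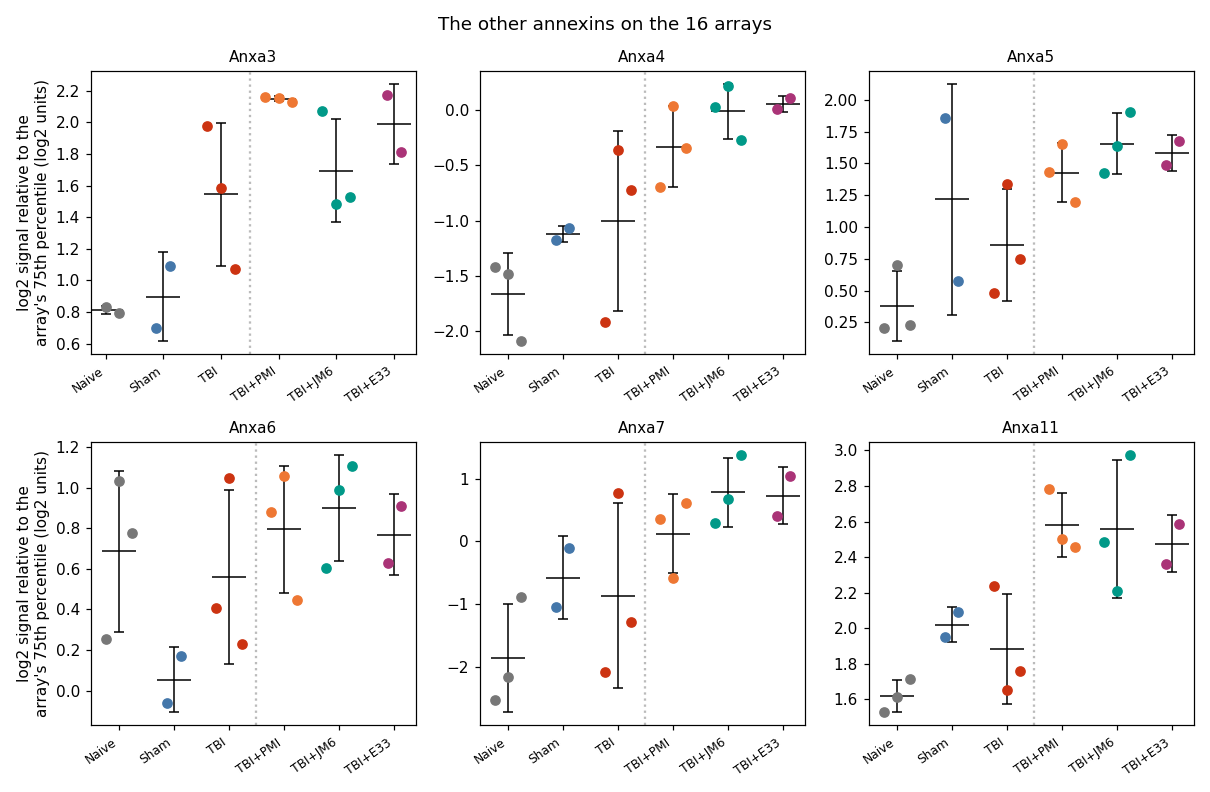
Signal of Anxa3, Anxa4, Anxa5, Anxa6, Anxa7 and Anxa11 on each array as log2 relative to the array's 75th percentile, by group, with mean ± SD. The vertical axes differ between panels, and the dotted line separates the scan sessions. Anxa11 stays within 1.53 and 2.98 while Anxa7 spans -2.54 to 1.38.

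The other annexins on the array were at or near background. Anxa10 was well above it on 1 array, Anxa9 on 2, Anxa13 on 7 and Anxa8 on 9. Anxa8 was above it on all 8 drug arrays, on 1 Naive array and on no Sham or TBI array. Against the TBI rats, where it was not well above background, Anxa8 was at least 1.78-fold, 1.82-fold and 2.23-fold higher in TBI+JM6, TBI+PMI and TBI+E33, beside a shift of all probes of 1.99-fold, 1.73-fold and 2.11-fold, and after quantile normalization its log2 differences were -0.34, -0.015 and -0.29. Anxa8 passed the filter only through the drug groups, so no test of it is given. Anxa13, an epithelial annexin, was above background on all TBI+PMI and TBI+E33 arrays and on 2 of 3 TBI+JM6 arrays, and on none of the first session.

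Of 26 genes listed as partners, receptors and substrates of the annexins, 23 had a probe and 20 were tested. Some of these, Plau among them, passed the filter only through injured or drug groups. In TBI vs Sham 4 of the 20 were called, all higher, beside 9.38% of all probes, and the median over all 20 was 0.99. The genes called were S100a10, and S100a6, S100a4 and Plau, which are named here because of their values. Without TBI 1 there were 10, all higher, beside 17.9% of all probes. S100a10, the partner of Anxa2, was 1.60, 1.63 and 1.33 in Naive, 1.45 and 1.69 in Sham, and 2.38 and 3.90 in TBI 1 and TBI 3, its spot on TBI 2 being flagged and dropped. The groups did not overlap, and the difference was 1.57 ± 0.40 in TBI vs Sham with an adjusted p of 0.0324, and 1.62 ± 0.36 in TBI vs Naive with an adjusted p of 0.0293. S100a4 was 2.22 ± 0.45 higher and S100a6, which also binds annexins, 2.35 ± 0.64 higher in TBI vs Sham, with adjusted p of 0.0138 and 0.0387. Plau, the urokinase that activates plasminogen, was not well above background in any Sham or Naive rat but it was in every TBI rat, and its mean there was at least 4.25-fold that of Sham.

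S100a11, the partner of Anxa1, was -2.41, -0.21 and -2.43 in Naive, -1.99 and -0.87 in Sham, and -0.98, 1.30 and 0.95 in TBI rats. Naive 2 was high and TBI 1 low for this gene too. The difference was 1.85 ± 0.70 in TBI vs Sham and 2.11 ± 0.63 in TBI vs Naive, with adjusted p of 0.114 and 0.0753. Fpr1, a formyl peptide receptor, and Fpr-rs6 of the same family were not well above background on any array, and no probe is named Fpr2, Fpr-rs4 or Sri. Of the other listed receptors, Fpr3 was well above background on 5 arrays and Fpr-rs3 on 6, all of them drug arrays. Both passed the filter only through a drug group. Plat, the plasminogen activator that Anxa2 holds, differed by 0.17 ± 0.51 in TBI vs Sham, with an adjusted p of 0.866. Pdcd6, the partner of Anxa11, differed by 0.41 ± 0.26, with an adjusted p of 0.343.

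In TBI vs Naive 4 of the 20 partner genes were called, all higher, beside 4.71% of all probes, and 8 without TBI 1, beside 8.97%. In Sham vs Naive 0 were called, beside 8.07%. Against TBI, the JM6, PMI-006 and estradiol groups had 10, 7 and 9 called, all higher, beside 70.1%, 56.7% and 70.3% of all probes, and after quantile normalization 0, 1 and 0. Between the drug groups 0 were called.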

How the data were processed

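Scanner files as deposited hold spot intensity, background subtracted and detrended by the authors with Feature Extraction 9.5.3.1, and not normalized between arrays. The value table the authors deposited gives each probe as a ratio to its array's 75th percentile. Every column has a median of 0.14, and it correlates with the scanner values at 0.981 to 0.999. Which of 2 amplification kits was used for which rat is not given in the sources used here.

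Intensities of 42877 non-control spots, outlier flags left out, were averaged by probe, divided by the array's 75th percentile of probes well above background and log2 transformed. The 22821 probes above background on all arrays of at least 1 group were tested with limma 3.58.1 (R 4.3.3) over 16 arrays, without intercept or block, with Benjamini-Hochberg adjustment over all probes. The model was tested on simulated data. Members, partner and marker lists, and the rule that values are given for all members and 7 partners, were chosen with earlier results of these data known. Alternatives were 3 other scalings, normexp with an offset of 50, the authors' matrix, a GC correction, 2 filters, the methods' t-test, limma on the compared groups, slide and replicate blocks, and each rat left out. Figures used matplotlib 3.10.9.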

Additional observations from a re-analysis of the deposited data

How the results depend on the processing

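The count of annexins called in TBI vs Sham was 0 under every alternative that kept all rats, and 0 to 2 with a rat left out. In TBI vs Naive it was 0, but 1 with E1A scaling (Anxa2) and 2 among probes above background on all 16 arrays. These 2 settings called 4.18% and 8.81% of all probes. With a rat left out it was 0 to 3, beside 1.24% to 8.97% of all probes. In Sham vs Naive it was 0, but 1 with the 75th percentile over all probes and 1 with the methods' t-test before adjustment. These 2 settings called 10% and 16% of all probes. With a Naive rat left out it was 0, beside 3.84% to 6.57% of all probes. Between the drug groups it was 0 throughout, also with a rat left out (0 to 0).

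The drug counts moved most. For JM6, PMI-006 and estradiol vs TBI they were 4, 2 and 2, and became 0, 0 and 0 with quantile normalization, the authors' matrix, E1A scaling or the adjusted t-test. They were 0, 0 and 1 with the 75th percentile over all probes, the 1 being Anxa6, called lower, at -0.62 against 0.21 as reported. They were 1, 0 and 1 with normexp, 0, 1 and 0 with the unadjusted t-test, and 1, 1 and 0 with limma on the compared groups alone. Without a filter PMI-006 and estradiol had 1 and 1, beside 44.2% and 59.2% of all probes. With the filter on all 16 arrays, which drops Anxa3, PMI-006 had 1 and estradiol 3, beside 50.4% and 65.1%. With the slide as a random block estradiol had 4, beside 75.8%. The share of all probes called, 70.1%, 56.7% and 70.3% in the reported fit, moved too. It was 27.0%, 19.0% and 20.6% with the authors' matrix, 52.0%, 35.6% and 44.0% with the adjusted t-test, 62.4%, 52.4% and 60.8% with the unadjusted one, 43.8%, 35.8% and 40.4% with the percentile over all probes, 21.5%, 6.31% and 14.0% with normexp, and 62.3%, 49.1% and 64.5% on the compared groups alone. With a rat left out the counts were 1 to 4, 0 to 4 and 0 to 3. They were 1, 2 and 2 without TBI 1, 4, 4 and 3 without TBI 2, and 2, 0 and 1 without TBI 3. The shares of all probes called were 63.2%, 50.9% and 64.4% without TBI 1. They were 70.5%, 56.8% and 70.9% without TBI 2, and 60.5%, 45.3% and 61.7% without TBI 3. JM6 had 1 member called without TBI+JM6 2 or 3, beside 64.4% and 58.6% of all probes. PMI-006 had 0 without TBI+PMI 1 and 1 without TBI+PMI 2 or 3, beside 47.5%, 44.7% and 58.8% of all probes. With the replicate block, 3, 2 and 3 members were called with JM6, PMI-006 and estradiol and 1 in TBI vs Naive (Anxa1, 2.21 ± 0.55, adjusted p 0.0433 by limma). The shares of all probes called with that block were 70.6%, 56.7%, 67.9% and 5.82%. The numbers are not known to pair the rats: over 36 same-numbered pairs of arrays the median correlation of deviations from the group means was 0.019, and 3 pairs were over 0.1.

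For 35 of the fold changes in the text, 662 values were computed under the alternatives, of which 637 kept their direction and 25 did not. Part of the 637 could not have reversed. A change of filter or of test alone left the group means, and so every fold change still computed, as reported. The same holds where the model was fitted only to the groups being compared. Those values are no check on direction. Reversed values were Anxa11 in TBI vs Sham with E1A scaling (0.15), Anxa11 with JM6 (-0.12), Anxa3 with PMI-006 (-0.041) and Anxa2 and Anxa11 with estradiol (-0.29 and -0.24) when the 75th percentile was taken over all probes, Anxa2 and Anxa11 with estradiol under E1A scaling (-0.15 and -0.091), Anxa2 with estradiol under quantile normalization (-0.033) and in the authors' matrix (-0.018), Anxa1 and Anxa2 in Sham vs Naive with the slide as a fixed block (-0.0024 and -0.24), and Anxa7 in TBI+PMI vs TBI+E33 with the slide as a fixed block (0.13). With a rat left out, the range was -0.20 to 0.58 for Anxa4, -1.004 to 0.28 for Anxa5 and -1.11 to 0.32 for Anxa7 in TBI vs Sham, -0.14 to 1.16 for Anxa1 and -0.24 to 0.98 for Anxa2 in Sham vs Naive, -0.14 to 1.32 for Anxa1 and -0.039 to 1.17 for Anxa2 with PMI-006, and -0.22 to 0.99 for Anxa2 with estradiol. The cause of these changes was not tested.

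The slide could not be a fixed block where groups were scanned in different sessions. The mean over a gene's probes was not run, since each member has 1 probe. Partner counts without TBI 1 and after quantile normalization were added after seeing the data. With 2 or 3 rats a group, and where 1 rat was left from 2, that rat was assumed to vary like the others.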
